A study of Mus musculus with 2 samples.

Results

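Transcripts of genes named for RNA methylation and its removal were compared between the pancreas of mice whose mothers ate a control diet in pregnancy and that of mice whose mothers ate a methionine-deficient diet. The genes were chosen by name: every probe set with exactly 1 gene symbol on the array annotation was taken where that symbol begins with Mettl, Nsun, Trmt, Alkbh or Ftsj, or is one of Fto, Wtap, Fbl, Emg1, Nop2, Dimt1, Rnmt, Cmtr1, Cmtr2, Trdmt1, Tgs1, Spout1 or D2Wsu81e (an older name of Spout1). This gave 149 probe sets for 72 symbols, out of 34945 probe sets for 18193 symbols. Of the 72, 70 are protein-coding genes, 1 is an RNA antisense to Alkbh3 (Alkbh3os1) and 1 is a pseudogene (Mettl4-ps1). A symbol that starts with Mettl says only that the protein resembles a methyltransferase, and several Mettl and Alkbh enzymes act on proteins or DNA.

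Methyl groups for RNA come from S-adenosylmethionine, which cells make from methionine, the amino acid that was lacking in the mothers' diet. On messenger RNA the most studied internal mark is N6-methyladenosine (m6A), laid down by a nuclear complex around Mettl3 and Mettl14, taken off by the oxygenases Fto and Alkbh5, and read by YTH-domain proteins. Caps of messenger RNA, transfer RNA and ribosomal RNA are methylated by further sets of enzymes, many of which work in the nucleolus or in mitochondria. The acinar cells that fill most of the pancreas make protein at a very high rate and so depend on ribosomes and transfer RNAs.

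Both groups were male offspring of C57BL/6J females, an inbred strain, that ate either the control or the methionine-deficient diet while pregnant. The offspring were weaned at 3 weeks, kept on control diet from then on, not treated themselves, and sampled at 10 weeks of age. RNA of the pancreas was combined by group, so the control group was 1 pool on 1 array and the methionine-deficient group was 1 pool on 1 array. How many mice went into a pool is not given in the sources used here. With 1 array per group there was no test, and no p-value is given. As an error, each log2 difference (methionine-deficient minus control) is given with a spread, a robust SD of how probe sets for 1 gene differ at that signal level. It covers probe noise within these arrays and neither mice nor hybridisations. Over 5 bins of rising level the spread was 0.78, 0.59, 0.41, 0.28 and 0.18. Differences were taken on log2(intensity + 1), which slightly understates folds of dim probe sets, and folds are on that scale. Where a pair of intensities is given, the control pool comes first. A gene was read through the probe set whose mean level was highest and kept where that reached an intensity of 150.3, the median over probe sets, which left 59 of the 72 symbols and 11848 of all genes.

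Genes of the labelled tissue were bright. All 5 measured acinar enzyme genes had intensities of at least 139181, and log2 differences between -0.06 and 0.04. The highest intensities on the arrays were 263446 in control and 266191 in methionine-deficient RNA. Whether signals this bright still follow the amount of RNA was not tested. Of the 4 Prss2 probe sets past the filter only the brightest was higher. Of the 5 islet genes 2 were higher and 3 lower, with log2 differences from -0.07 to 0.39. The insulin gene Ins2 had 93733 in control and 93461 in methionine-deficient RNA. The glucagon gene Gcg had 21772 and 28591 (log2 difference 0.39, spread 0.18). Genes of other cell types also differed. Of the 7 B cell and plasma cell genes 6 were lower in the methionine-deficient pool, with summed intensities of 13171 against 6691. All 3 endothelial genes past the level filter were higher (0.25 to 0.48, spreads 0.41 to 0.59), as were all 3 duct genes past it (0.19 to 0.74, spreads 0.28 to 0.59). Of these, Pecam1, Cdh5 and Krt19 were within 1 spread, and the other Cdh5 probe set past the filter pointed the other way. Below the filter, the duct gene Cftr had 129 and 46.2, and the endothelial gene Kdr had 61.4 and 261. Adipocyte genes were lower in 3 of 4, with Cidec at -1.59. Of 5 macrophage genes 3 were higher, and their summed intensity was 3987 against 5668. RNA quality was read from the signal near the 3' end over that near the 5' end of control transcripts, which was 1.46 and 1.76 for Actb and 0.973 and 1.11 for Gapdh in the control and methionine-deficient pools. The part of these shifts in the values that follow was not tested. In whole tissue, fewer cells of a type and less RNA per cell cannot be told apart.

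**Figure D1:**
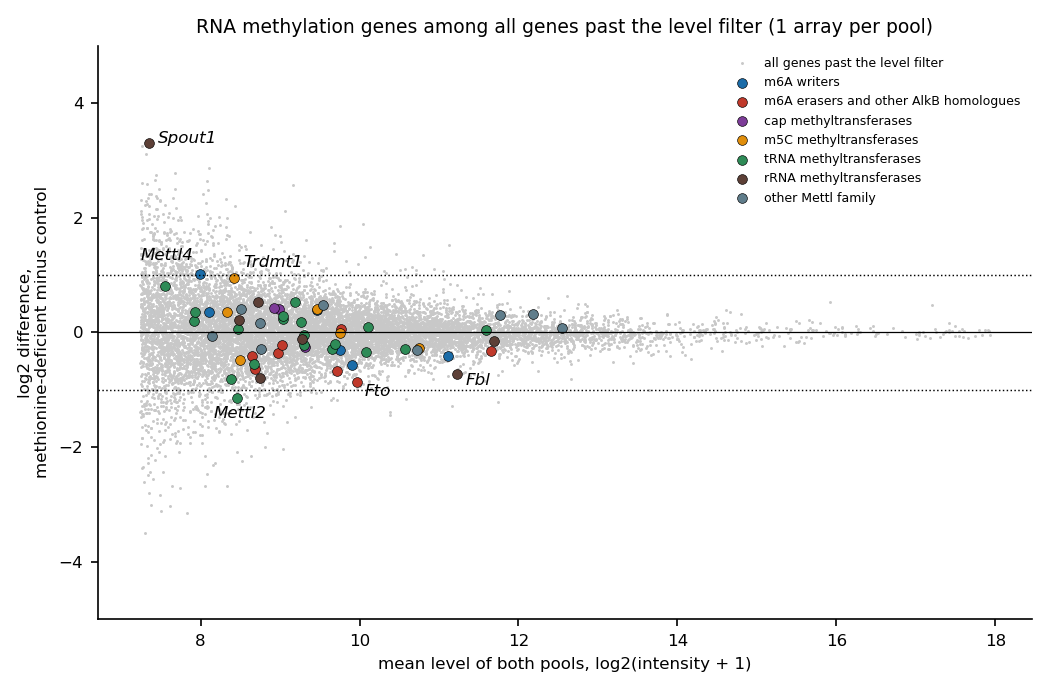
Each point is a gene past the level filter, placed by its mean level over both pools, log2(intensity + 1), and by its log2 difference, methionine-deficient minus control, 1 array per pool. Genes of RNA methylation are coloured by role, all other genes are grey, and dotted lines mark 2-fold. Most coloured points lie within the grey cloud at their level, with Spout1 at 3.30 near its upper edge and Fto (-0.86) and Fbl (-0.73) near its lower edge.

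Large differences were as rare among RNA methylation genes as on the whole array, and went both ways. Of the 59 symbols past the filter 28 were higher and 31 lower in the methionine-deficient pool (52.5% lower, against 50% of all genes past the filter). Their median log2 difference was -0.05, against 0.00 for all genes. Within 1.5-fold lay 48 of the 59 (81.4%), against 80.6% of all genes. At least 2-fold higher were 2, Spout1 and Mettl4 (3.39%, against 3.87% of all genes), and at least 2-fold lower was 1, Mettl2 (1.69%, against 2.8%). Of these, Spout1 passed the filter only through the pool in which it was high. At 1.5-fold 4 were higher (6.78%, against 10.4%) and 7 were lower (11.9%, against 9%). These shares are near those of all genes. The typical difference was somewhat larger than over all genes, with a median size of 0.32 against 0.25 and with 29 of the 59 beyond 1 spread (49.2%, against 34.9% of all genes). Differences of more than 2 spreads were found for 6 of the 59 (10.2%, against 8.41% of all genes): Spout1 on the higher side, and Fbl, Fto, Alkbh3, Wtap and Mettl3 on the lower side. In Fbl, Wtap and Alkbh3 the other probe set past the filter was not lower (0.01, 0.09 and 1.45). Fto and Mettl3 each rest on 1 probe set past the filter.

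**Figure D2:**
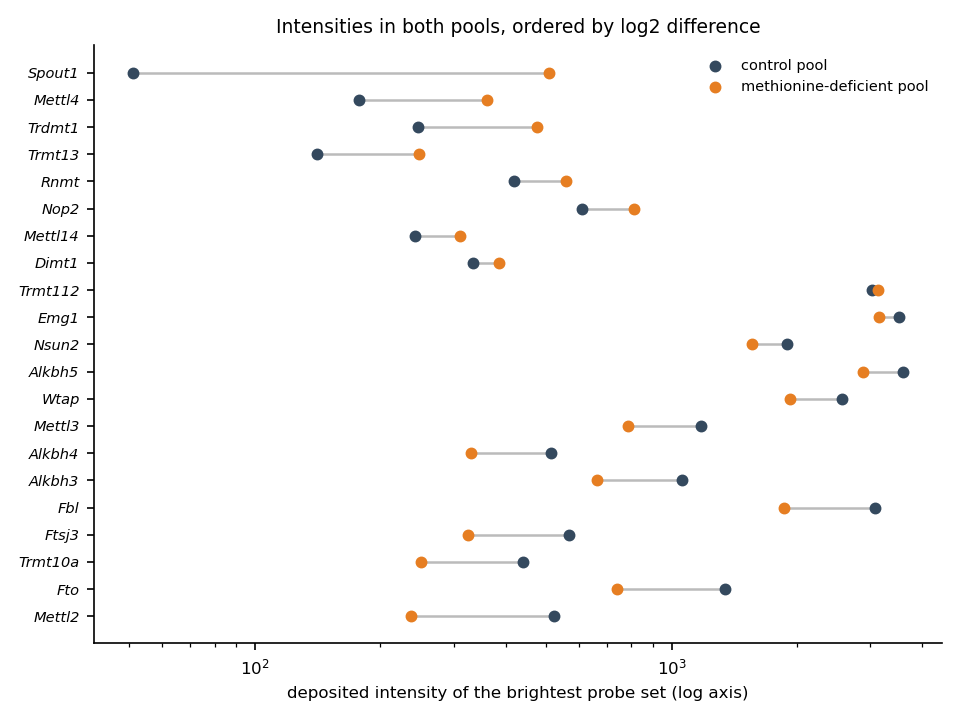
Deposited intensity (log axis) of the brightest probe set in the control pool and the methionine-deficient pool, for a fixed core of genes and for every gene past the filter that differed by at least 1.5-fold. Spout1, at the top, goes from 50.9 to 508, Trmt112 is nearly level at 3029 and 3122, and Mettl2, at the bottom, goes from 523 to 237.

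The DNA just outside the start of some of these genes is shown for 4 that differed by at least 1.5-fold: Spout1 and Trdmt1, which were higher, and Fto and Ftsj3, which were lower. Sequences are from RefSeq (GRCm38.p6), cover the part of the promoter window that lies outside any annotated gene, and are written 5' to 3' on the strand of the gene. Capitals mark CG, the dinucleotide at which mammalian DNA is methylated. Methylation was not measured in this study.
Spout1, chr2:30178495-30178709, minus strand: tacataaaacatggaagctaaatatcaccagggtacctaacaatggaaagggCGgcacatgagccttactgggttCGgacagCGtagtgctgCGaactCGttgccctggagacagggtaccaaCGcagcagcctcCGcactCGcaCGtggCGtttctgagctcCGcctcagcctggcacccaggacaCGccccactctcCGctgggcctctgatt
Trdmt1, chr2:13544798-13544914, minus strand: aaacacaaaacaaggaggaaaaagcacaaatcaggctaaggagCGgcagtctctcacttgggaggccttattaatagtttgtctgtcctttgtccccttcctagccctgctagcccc
Fto, chr8:91313292-91313366, plus strand: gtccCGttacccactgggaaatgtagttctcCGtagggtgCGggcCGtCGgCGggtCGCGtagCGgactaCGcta
Ftsj3, chr11:106256085-106256184, minus strand: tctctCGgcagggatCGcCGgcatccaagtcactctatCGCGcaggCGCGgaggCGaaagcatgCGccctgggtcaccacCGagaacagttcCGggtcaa
The stretches of Fto and Ftsj3 are short because Rpgrip1l and Psmc5, respectively, lie on their other side. CG occurred 13 times in the 215 bases shown for Spout1, 10 times in the 75 bases for Fto, 11 times in the 100 bases for Ftsj3 and 1 time in the 117 bases for Trdmt1. Over the whole promoter windows of 300 bases the counts were 23 for Spout1, 23 for Fto, 21 for Ftsj3 and 15 for Trdmt1.

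Promoter windows of 300 bases around the start were found in RefSeq for 59 of the 72 symbols, 70 windows in all, some of which overlap. They held a median of 21 CG, against 19 in the 12195 windows of all genes past the level filter and 7 in all 32851 windows. The letters CCGGAAG, the core bound by ETS factors, stood on either strand in 25 of the 70 windows (35.7%), against 16.1% of windows of genes past the filter and 8.86% of all windows. Spout1, Mettl3, Mettl4, Nop2, Emg1 and Nsun2 were among the genes with it, some higher and some lower in the methionine-deficient pool. CACGTG, an E-box, was in 10% of the windows against 9.68% for genes past the filter, and CCAAT in 35.7% against 36.8%. No copies of different motifs can overlap, while CCGGAAG and CACGTG each hold a CG of their own. Such a match is a description of the letters and not a site of binding.

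The m6A writers did not differ in 1 direction. Mettl3, the catalytic subunit, had 1174 in control and 787 in methionine-deficient RNA (1.49-fold lower, log2 difference -0.58, spread 0.28). Its partner Mettl14, which holds the RNA, had 243 and 311 (log2 difference 0.36, spread 0.59), so the catalytic and the RNA-binding subunit lay on opposite sides of 0. Wtap, the adaptor that keeps the pair in nuclear speckles, had 2558 and 1929 in its brightest probe set (log2 difference -0.41, spread 0.18) and 1829 and 1941 in the other (log2 difference 0.09). The control pool was thus the higher one for Wtap in the first of these and the lower one in the second. Each Mettl3 and Mettl14 value rests on 1 probe set.

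Writers with other targets were also split. Mettl16, which methylates U6 small nuclear RNA and hairpins of the Mat2a messenger RNA for S-adenosylmethionine synthetase, had 616 in control and 802 in methionine-deficient RNA (log2 difference 0.38, spread 0.28). Mettl5, which acts on 18S ribosomal RNA, had 964 and 775 (log2 difference -0.32, spread 0.28). Mettl4, an enzyme for U2 small nuclear RNA, had 178 and 359.6 (2.01-fold higher, log2 difference 1.01, spread 0.59), which lies just past the 2-fold line. Its other probe set, below the filter, had 153 and 80.1, and the mean over its probe sets was 0.04. Of the 6 writers 3 lay higher and 3 lower. The sign of their median, 0.02, turned with array medians subtracted (-0.03), quantile scaling (-0.0034), loess scaling (-0.00057), the mean over probe sets (-0.06) and a filter at the 75th percentile (-0.36).

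The regulatory proteins of the m6A complex, a list of genes outside the naming rule, varied as widely. Zc3h13, which anchors the complex in the nucleus, had 279 in control and 546 in methionine-deficient RNA (1.96-fold higher, log2 difference 0.97, spread 0.59). Virma, its scaffold, had 391 and 559.9 (log2 difference 0.52, spread 0.41), and the RNA-binding adaptor Rbm15 had 329 and 487 (log2 difference 0.56, spread 0.41). The related adaptor Rbm15b was the lower one, at 693 and 448 (log2 difference -0.63, spread 0.41). The ubiquitin ligase Cbll1 had 847 and 725 (log2 difference -0.22, spread 0.28). In Virma, Rbm15b and Cbll1 the other probe set past the filter pointed the opposite way. So 3 of 5 were higher, with a median of 0.52, against 2 of 4 and a median of 0.21 with the mean over probe sets. Only Rbm15b and Cbll1 passed a filter at the 75th percentile of level, both lower.

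Readers of m6A were close in both pools. The cytoplasmic reader Ythdf1 had 4399 in control and 4285 in methionine-deficient RNA (log2 difference -0.04, spread 0.18), and its paralogue Ythdf3 had 2865 and 3156 (log2 difference 0.14, spread 0.18). In the nuclear reader Ythdc1 the values were 2345 and 2377 (log2 difference 0.02, spread 0.18). Hnrnpa2b1, an RNA-binding protein also described as a nuclear reader, had 8141 and 9034 (log2 difference 0.15, spread 0.18). All 4 differences were within 1 spread. The largest, that of Igf2bp3, which stabilises bound messenger RNAs, came from 557 and 682 (log2 difference 0.29, spread 0.41). None of the 6 readers past the filter reached 1.5-fold, nor did 80.6% of all genes. In the brightest level bin, where the first 4 lie, 2.40% of genes reached it. In Ythdf1, Ythdf3, Hnrnpa2b1 and Igf2bp3 some probe sets past the filter pointed the other way.

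Demethylases and their AlkB relatives were lower in 7 of 8 genes past the filter (50% of all genes were lower), with a median log2 difference of -0.39. Fto, which removes m6A and the related cap-adjacent mark, had 1344 in control and 739.9 in methionine-deficient RNA, 1.81-fold lower (log2 difference -0.86, spread 0.28). The only other Fto probe set lay below the filter, at 79.1 and 83.7 (0.08 on the log2 scale). Alkbh5, the other m6A eraser, had 3602 and 2879 (log2 difference -0.32, spread 0.18) and 1279.8 and 1315 in its second probe set (log2 difference 0.04). The value of Fto therefore rests on 1 probe set, and those of Alkbh5 lay on either side of 0.

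Further AlkB proteins act on transfer RNA, DNA or protein. Alkbh3, which repairs alkylated DNA and RNA, had 1062 in control and 661 in methionine-deficient RNA (1.61-fold lower, log2 difference -0.68, spread 0.28), while its other probe set had 115 and 315 (log2 difference 1.45). Alkbh4, known for demethylating actin, had 512 and 330.2 in its brightest probe set (log2 difference -0.63, spread 0.41), 67.6 and 401 in the next (2.55) and, below the filter, 302 and 41 (-2.85). In both genes the second probe set past the filter differed from the brightest by more than the spread. It passed the filter only through the methionine-deficient pool, in which it was high, and the direction of neither gene is settled. Alkbh1, which acts on transfer RNA, had 569.7 and 443 (log2 difference -0.36, spread 0.41), and its probe set below the filter had 183 and 30.1. Alkbh8, which completes the modified wobble uridine of some transfer RNAs, had 561 and 482 (log2 difference -0.22, spread 0.41). Its dimmer probe set, below the filter, had 39.5 and 167, and the mean over both was 0.92.

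Alkbh6 had 463 in control and 348 in methionine-deficient RNA (log2 difference -0.41, spread 0.41). Alkbh7, a mitochondrial protein, was the exception of the group with 849 and 889 (log2 difference 0.07, spread 0.28). The DNA repair enzyme Alkbh2 missed the filter, at 195 and 36.6 (log2 difference -2.38). The antisense transcript Alkbh3os1 had 221 and 199 (log2 difference -0.15, spread 0.78). With the other scalings and pseudocount 7 of 8 were lower, with medians from -0.44 to -0.37. These still read 1 brightest probe set per gene and so cannot test its direction. With the mean over all probe sets of a gene 5 of 8 were lower and the median was -0.23.

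**Figure D3:**
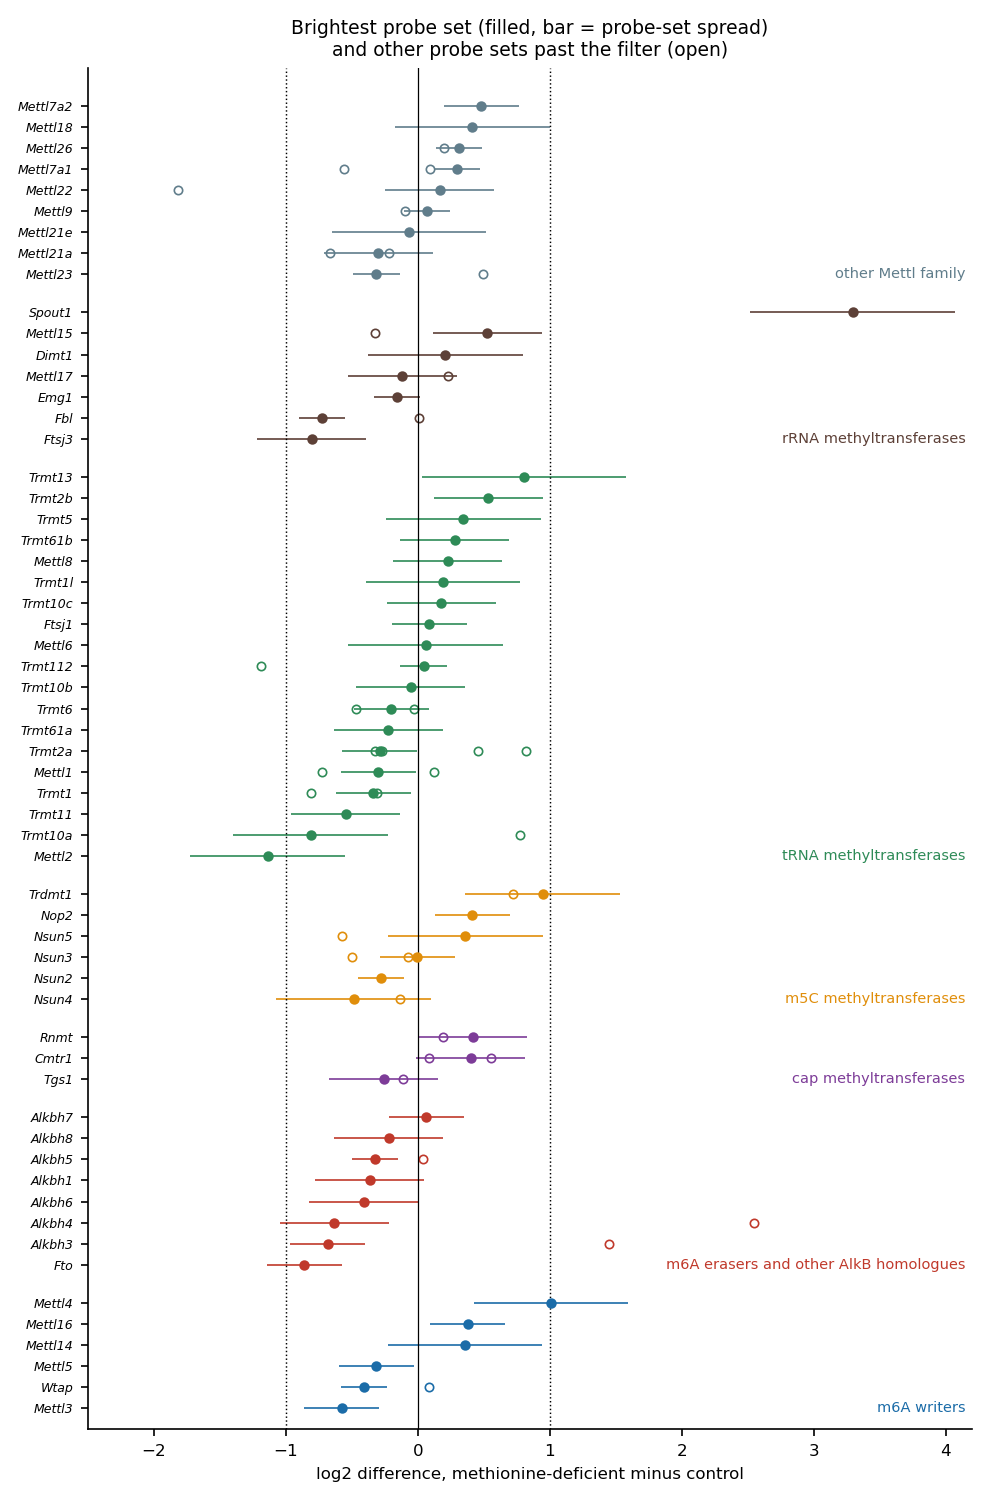
Log2 difference, methionine-deficient minus control, of every coding gene past the level filter, grouped by role. Filled points are the brightest probe set with its spread as a bar, open points are the gene's other probe sets past the filter, and dotted lines mark 2-fold. Fto and the AlkB genes lie mostly left of 0 by their filled points, while open points of Alkbh3 (1.45) and Alkbh4 (2.55) lie far to the right. Both of these open points passed the filter only through the methionine-deficient pool.

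The 3 cap methyltransferases past the filter differed by less than 1.5-fold (80.6% of all genes did). Rnmt, which methylates the guanine of the cap, had 418 in control and 557 in methionine-deficient RNA (log2 difference 0.42, spread 0.41), and its other probe set past the filter had 339 and 387 (0.19). Cmtr1, which methylates the first transcribed nucleotide, had 439 and 579.9 (log2 difference 0.40, spread 0.41), with log2 differences of 0.09 and 0.55 in its other probe sets past the filter. Both genes were thus higher in each of their probe sets past the filter. Tgs1, which makes the trimethylated cap of small nuclear and nucleolar RNAs, was lower in both of its probe sets past the filter, at 696 and 582 (log2 difference -0.26, spread 0.41) and 158 and 146 (-0.11). The methionine-deficient value of the second lay below the filter intensity. The 4 dimmer probe sets of Tgs1 had log2 differences from -1.42 to 2.01. Cmtr2, the enzyme for the second nucleotide, missed the filter at 123 and 145.

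Other cap proteins, again outside the naming rule, went both ways. The capping enzyme gene Rngtt had 239.5 in control and 434 in methionine-deficient RNA (1.81-fold higher, log2 difference 0.85, spread 0.59), but its other probe set past the filter was lower. Ncbp1, the large subunit of the nuclear cap-binding complex, had 1059.7 and 590.4 (1.79-fold lower, log2 difference -0.84, spread 0.28). Its small subunit Ncbp2 had 1134 and 1156 (log2 difference 0.03, spread 0.28), but only 1 of its 3 probe sets past the filter was higher. Mepce, which caps the 7SK RNA, had 1201 and 798 (log2 difference -0.59, spread 0.28), with 2 of its 3 probe sets past the filter lower. Pcif1, which adds the m6A-like mark beside the cap, had 306 and 350.1 (log2 difference 0.19, spread 0.59). Of these 5 genes 3 were higher and 2 lower, and the sign of their median, 0.03, turned with array medians subtracted (-0.02). With the mean over probe sets 1 was higher and 4 lower (median -0.26), and with the filter at the 75th percentile 1 was higher and 2 lower (median -0.59).

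Among the 5-methylcytosine (m5C) enzymes Trdmt1 stood highest. This enzyme of transfer RNA, also called Dnmt2 for its resemblance to DNA methyltransferases, had 246 in control and 475 in methionine-deficient RNA (1.93-fold higher, log2 difference 0.95, spread 0.59). Its other probe set had 129.6 and 215 (log2 difference 0.72, spread 0.78), also higher in the methionine-deficient pool. That second probe set passed the filter only through the pool in which it was high, and its difference was within 1 spread. Nop2, which methylates ribosomal RNA in the nucleolus, had 610.1 and 813 (log2 difference 0.41, spread 0.28). Nsun2, the main m5C enzyme of transfer and messenger RNA, had 1898 and 1562 (log2 difference -0.28, spread 0.18). The difference of Nop2 and that of Nsun2 exceeded 1 spread, in opposite directions.

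Of the mitochondrial enzymes, Nsun3, which acts on the methionine transfer RNA, had 867 in control and 864 in methionine-deficient RNA (spread 0.28), and each of its 3 probe sets past the filter was lower, with log2 differences from -0.49 to -0.0040. Its dimmest probe set, below the filter, had 105 and 3.85. Nsun4, which acts on the mitochondrial ribosome, had 425 and 303 (log2 difference -0.49, spread 0.59) and 223 and 204 in the next probe set, and 32.9 and 328 in a dimmer one below the filter, with a mean over all of 0.89. Nsun5, an enzyme of 28S ribosomal RNA, had 284 and 365 (log2 difference 0.36, spread 0.59) and, in the other probe set, 244 and 164 (-0.57). Nsun6 and Nsun7 missed the filter. The 2 probe sets of Nsun6, a transfer RNA enzyme, gave 2.54 and -3.66. The group was 3 higher and 3 lower, with a median of 0.18, which was -0.0040 over the 3 genes past a filter at the 75th percentile.

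Transfer RNA methyltransferases formed the largest group, with 19 of 22 genes past the filter, 10 higher and 9 lower. The median log2 difference was 0.04, which turned to -0.01 with array medians subtracted and to -0.11 with the mean over probe sets, and to -0.13 without those that can bind several transcripts. Mettl2, which makes 3-methylcytidine in the anticodon loop, had 523 in control and 237 in methionine-deficient RNA (2.20-fold lower, log2 difference -1.14, spread 0.59). Its 2 dimmer probe sets, below the filter, had 221 and 57.5 and 118 and 17.9, values too dim to add support. The related enzymes Mettl6, at 346 and 361 (log2 difference 0.06, spread 0.59), and the mitochondrial Mettl8, at 486 and 569 (log2 difference 0.23, spread 0.41), were within 1 spread of 0.

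Trmt1, which makes dimethylguanosine, was lower in all of its 3 probe sets, at 1221 and 965 in the brightest (log2 difference -0.34, spread 0.28), with -0.31 and -0.81 in the others. Its paralogue Trmt1l had 226 and 258 (log2 difference 0.19, spread 0.59). The 1-methyladenosine complex of Trmt6 and Trmt61a was slightly lower in both subunits. Trmt6 had 883 and 767 (log2 difference -0.20, spread 0.28), with all 3 probe sets lower, and Trmt61a had 678 and 581 (log2 difference -0.22, spread 0.41). The mitochondrial counterpart Trmt61b had 475 and 576 (log2 difference 0.28, spread 0.41). None of the differences of Trmt6, Trmt61a and Trmt61b exceeded 1 spread.

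Trmt112, an activating partner of methyltransferases for transfer RNA, ribosomal RNA and a translation factor, had 3029 in control and 3122 in methionine-deficient RNA in its brightest probe set (log2 difference 0.04, spread 0.18). The other gave 503 and 219.9 (-1.19). The direction of Trmt112 turned with array medians subtracted (-0.01), with the mean over probe sets (-0.57) and without probe sets that can bind several transcripts (-1.19). Trmt11, which works with Trmt112, had 492 and 337 (log2 difference -0.55, spread 0.41). Mettl1, the 7-methylguanosine enzyme, had 1681 and 1366 (log2 difference -0.30, spread 0.28), with 0.12 and -0.73 in the other probe sets. Its partner Wdr4 had 167 and 151 (log2 difference -0.14, spread 0.78). Ftsj1, which methylates riboses of the anticodon loop, had 1068 and 1135 (log2 difference 0.09, spread 0.28), and its partner Wdr6 had 1585 and 1623 (log2 difference 0.03, spread 0.18). The Ftsj1 and Wdr6 values were close in both pools.

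The Trmt10 enzymes methylate guanine or adenine near the acceptor stem. Trmt10a, whose loss in people causes diabetes, had 441 in control and 251 in methionine-deficient RNA (1.75-fold lower, log2 difference -0.81, spread 0.59). A further probe set of Trmt10a past the filter had 165 and 283 (0.78), of nearly equal size and opposite sign. Trmt10b had 639.8 and 617 (log2 difference -0.05, spread 0.41), and the mitochondrial Trmt10c had 575 and 651 (log2 difference 0.18, spread 0.41). Hsd17b10, the partner of Trmt10c in mitochondrial RNase P, had 2783 and 2787 (log2 difference 0.00, spread 0.18). Of the whole Trmt10 set, Trmt10a alone reached 1.5-fold, and its probe sets disagreed.

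Trmt2a, which makes 5-methyluridine, had 887 in control and 727 in methionine-deficient RNA (log2 difference -0.29, spread 0.28), and of its 5 probe sets past the filter the 3 brightest were lower and the 2 dimmest higher. The dimmest of these had 120 in control, below the filter. The mitochondrial Trmt2b had 483 and 701 (log2 difference 0.54, spread 0.41). Trmt5, which methylates guanosine next to the anticodon, had 215 and 273 (log2 difference 0.35, spread 0.59). Trmt13, which methylates riboses of the acceptor stem, had 141 and 247 (1.75-fold higher, log2 difference 0.81, spread 0.78), and its control value was below the filter. Its 4 probe sets below the filter had log2 differences from -2.55 to -0.37. Below the filter were Trmt12, which helps to make wybutosine (144 and 128), Trmt44 (27.7 and 87) and Trmt9b (26.8 and 11.5). Outside the naming rule, Lcmt2, another wybutosine enzyme, had 456 and 333 (log2 difference -0.45, spread 0.59), and Thada, a partner of Ftsj1, missed the filter.

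Among enzymes listed with ribosomal RNA, Spout1 differed most between the pools. It encodes a protein with a SPOUT methyltransferase domain, also known from kinetochores. Its intensity was 50.9 in control and 508 in methionine-deficient RNA, 9.82-fold higher (log2 difference 3.30, spread 0.78). It passed the level filter only through the methionine-deficient pool, had no value under the filter at the 75th percentile or with the mean over probe sets, and its exact fold carries little weight. A second probe set, below the filter, went from 5.42 to 63.3 (log2 difference 3.32), values too dim to add support. The scaling and pseudocount alternatives gave 2.97 to 3.30, but they read the same brightest probe set and do not test it. The control values of Spout1 lie below the median of the control array (164.7), where background can set the intensity and the size of a fold is uncertain. Endog, which overlaps Spout1 in RefSeq, had log2 differences of -0.31 and 0.19 in its 2 probe sets.

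Fbl, fibrillarin, methylates riboses of ribosomal RNA as guided by box C/D small nucleolar RNAs. Its brightest probe set had 3084 in control and 1865 in methionine-deficient RNA (1.65-fold lower, log2 difference -0.73, spread 0.18), but the other had 2386 and 2395 (log2 difference 0.01, spread 0.18). The brightest one is of a design that can bind more than 1 transcript, so whether fibrillarin messenger RNA differed is not settled. Nop58, a core protein of the same particles, had 903 and 963 (log2 difference 0.09, spread 0.28), and Nop56, its partner, had 787 and 961 (log2 difference 0.29, spread 0.28). Nolc1, a chaperone of these particles, had 778 and 714 (log2 difference -0.12, spread 0.28), lower in all of its 3 probe sets. All 3 of these genes were within 1.5-fold, as were 80.6% of all genes. The other Nop56 probe set past the filter pointed the other way.

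Ftsj3, a nucleolar factor of ribosomal RNA processing, had 567 in control and 325 in methionine-deficient RNA (1.74-fold lower, log2 difference -0.80, spread 0.41) in its only probe set. Ddx42, which overlaps Ftsj3 in RefSeq, had a log2 difference of -0.47. Emg1, which methylates a pseudouridine of 18S ribosomal RNA, had 3506 and 3142 (log2 difference -0.16, spread 0.18). Dimt1, the dimethyladenosine enzyme of the same RNA, had 333 and 385 (log2 difference 0.21, spread 0.59), and a dimmer probe set below the filter went from 110.3 to 24.4. Emg1 and Dimt1 were within 1 spread of 0 by their brightest probe sets.

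Mettl15, an enzyme of mitochondrial ribosomal RNA, had 349.7 in control and 505 in methionine-deficient RNA (log2 difference 0.53, spread 0.41), and its other probe set gave 365 and 291 (-0.32). Mettl17, an assembly factor of the mitochondrial ribosome, had 643 and 592 (log2 difference -0.12, spread 0.41) and 545 and 639.6 (0.23). Both genes thus had probe sets on either side of 0. The 7 genes of the group had a median of -0.12, with 3 higher and 4 lower. Without probe sets that can bind several transcripts 4 were higher and 3 lower (median 0.0058), and with the mean over probe sets 1 of 5 was higher (median -0.36).

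Further ribosomal RNA methyltransferases outside the naming rule were split into 4 higher and 4 lower, with a median of 0.01 that became -0.04 with array medians subtracted and -0.20 with a filter at the 75th percentile. Mrm1, a mitochondrial ribose methyltransferase, had 139.9 in control and 461 in methionine-deficient RNA (3.28-fold higher, log2 difference 1.71, spread 0.59), and its relatives Mrm2 and Mrm3 had 243 and 352 (log2 difference 0.53, spread 0.59) and 387 and 432 (log2 difference 0.16, spread 0.41). Mrm2 and Mrm3 were within 1 spread of 0, and Mrm1 was higher by nearly 3 spreads from a control value below that array's median. Zcchc4, the m6A enzyme of 28S ribosomal RNA, had 289 and 122 (2.36-fold lower, log2 difference -1.24, spread 0.78). Bud23, which pairs with Trmt112 on 18S ribosomal RNA, had 849.6 and 665 (log2 difference -0.35, spread 0.28). Tfb1m, the mitochondrial dimethyladenosine enzyme, had 1191 and 1082 (log2 difference -0.14, spread 0.28), but its other probe set past the filter pointed the other way. Rrp8 had 689 and 579 (log2 difference -0.25, spread 0.41), and Mterf4, which recruits Nsun4, had 413 and 564 (log2 difference 0.45, spread 0.41). Over all partner genes of this and the other roles, 31 of 35 passed the filter, 18 of them higher and 13 lower (median 0.03). A 2-fold difference was reached by 1 on the higher side (Mrm1) and 1 on the lower side (Zcchc4), against 3.87% and 2.8% of all genes. Both passed the level filter only through the pool in which they were high.

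**Figure D4:**
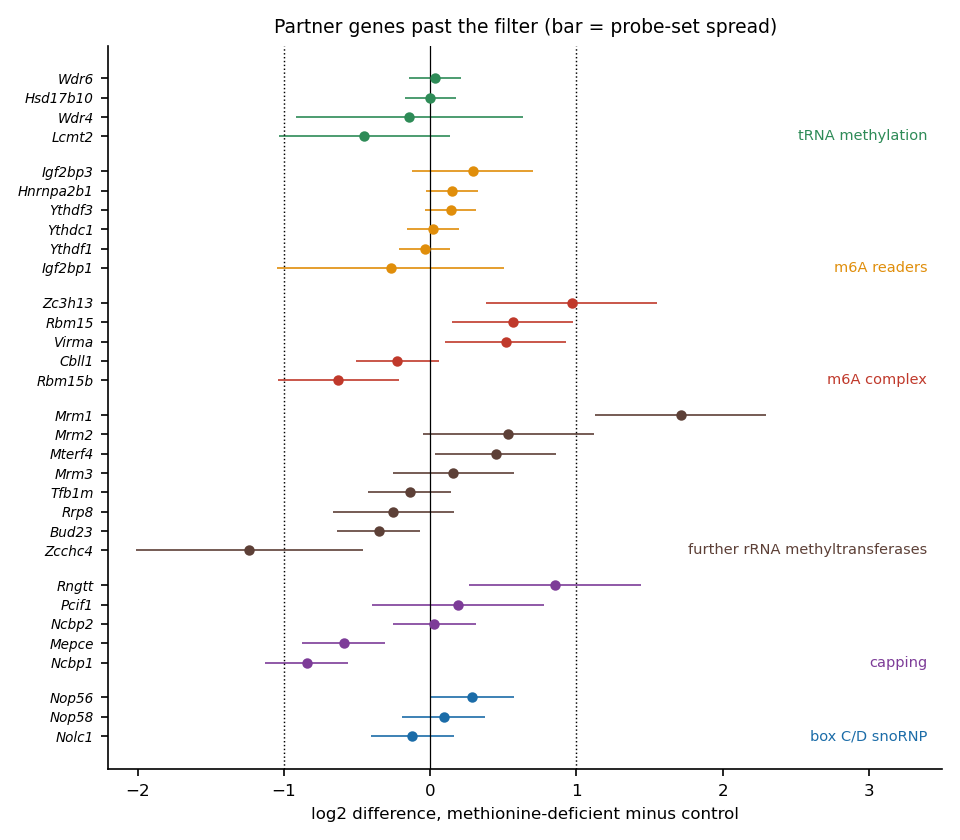
Log2 difference, methionine-deficient minus control, of the partner genes past the level filter, grouped by role, with the spread of 1 probe set as a bar and dotted lines at 2-fold. Mrm1 (1.71) and Zcchc4 (-1.24) lie beyond the lines, and the m6A readers lie close to 0.

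The other Mettl genes, most of which are known or thought to act on proteins or small molecules, had 9 of 14 members past the filter. All 9 were within 1.5-fold, as were 80.6% of all genes. Mettl9, a histidine methyltransferase of proteins, had 5853 in control and 6145 in methionine-deficient RNA (log2 difference 0.07, spread 0.18) and 4622 and 4324 in the other probe set. Mettl26 had 4158 and 5158 (log2 difference 0.31, spread 0.18), with both of its probe sets higher. Mettl7a1, a protein of the endoplasmic reticulum and lipid droplets, had 3152 and 3873 (log2 difference 0.30, spread 0.18), 3196 and 3401 in the next probe set and 246 and 167 in the third (-0.56), which ran the other way. The near-identical Mettl7a2 had 629 and 879 (log2 difference 0.48, spread 0.28), and since such copies can bind the same probes, their separate values are uncertain. Probe sets annotated to several Mettl7a genes, not counted here, had log2 differences of 0.06 and 0.23.

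Mettl23, an arginine methyltransferase, had 1888 in control and 1519 in methionine-deficient RNA (log2 difference -0.31, spread 0.18), and a further probe set ran the other way, at 875 and 1233 (0.50). Mettl21a, which methylates Hsp70 chaperones, was lower in all 3 probe sets, with 481 and 391 in the brightest (log2 difference -0.30, spread 0.41). Mettl22 had 405 and 455 (log2 difference 0.17, spread 0.41) but 444 and 125 in a second probe set (-1.82). That second probe set passed the filter only through the control pool. Mettl18, which methylates a histidine of a ribosomal protein, had 316 and 420.4 (log2 difference 0.41, spread 0.59), and Mettl21e had 289 and 276 (log2 difference -0.07, spread 0.59). So 6 of 9 were higher with a median of 0.17, but with the mean over probe sets 3 of 8 were higher and the median was -0.03.

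Probe sets of 1 gene often pointed in opposite directions, as they did across the array. Past the filter, 26 of the 59 symbols had 2 or more probe sets, and in 10 of these all pointed the same way (38.5%, against 39.6% of 4819 such genes on the array). That share depends on how many probe sets a gene has. With 2 probe sets 5 of 18 symbols had 1 direction (51.5% of such genes did), and with 3 probe sets 5 of 7 did (26.1%). Higher throughout were Cmtr1, Rnmt, Trdmt1 and Mettl26. Lower throughout were Tgs1, Nsun3, Nsun4, Mettl21a, Trmt1 and Trmt6. Of these 10 genes only Trdmt1 reached 1.5-fold in its brightest probe set. The second probe sets of Trdmt1 and Tgs1 passed the filter only through the pool in which they were high. Among probe sets, 95 of the 149 passed the filter, of which 7.37% were at least 2-fold different, against 7.45% of all probe sets past it.

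Below the filter the values scattered widely. The 54 dim probe sets had log2 differences from -4.45 to 3.32, with 11 higher by 2-fold or more and 23 lower by as much (63%, against 56.2% of all probe sets below the filter). The 13 symbols read only by such probe sets were Alkbh2, Cmtr2, Nsun6, Nsun7, Trmt12, Trmt44, Trmt9b, Mettl11b, Mettl24, Mettl25, Mettl27, Mettl7b and Mettl4-ps1. Among them Mettl24 had 11.8 and 94.6, Mettl7b had 52.3 and 12.7, and Mettl11b, related to an enzyme of protein N termini, had 4.7 and 5.72. No direction is read from values at this level.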

How the data were processed

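The authors deposited linear intensities per probe set for 2 arrays, 1 pool each. Per the labels' protocols, RNA was extracted with Trizol and labelled as biotin cRNA with a 3' IVT kit, so probes lie near the 3' ends of transcripts. No source used here gives the software, background correction or scaling. The deposited values had a trimmed mean, with 2% left out at each end, of 500.003 on both arrays, so a change in total RNA would not be seen. The number of arrays limits the precision. No detection calls were used.

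Symbols were those of the 2016 platform annotation, and all 72 symbols matched RefSeq by gene identifier. Values were taken to log2(intensity + 1). The spread was the median absolute difference between probe sets of 1 gene that neighbour in level, within 5 level bins past the filter, scaled to the SD of 1 probe set. The genes and their role lists were chosen with earlier results of these data known. Named were genes differing by 1.5-fold, genes with 2 or more probe sets past the filter, a fixed core, and in each role list up to 4 of the brightest and the largest difference. Others, such as those below the filter, were added after their values were seen. Python 3.11.15, numpy 2.4.6, pandas 2.3.3 and statsmodels 0.14.6 were used. Alternatives were 3 other scalings, a pseudocount of 16, other level filters, other probe set rules and other fold sizes.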

Additional observations from a re-analysis of the deposited data

How the results depend on the processing

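The median log2 difference, reported as -0.05, was -0.10 with array medians subtracted, which shift all genes by -0.05. It was -0.14 with a level filter at the 75th percentile, -0.11 when probe sets were averaged and 0.02, the other sign, with no level filter. It lay between -0.06 and -0.03 otherwise. The number at least 2-fold higher, reported as 2, was 1 with array medians subtracted, quantile scaling, loess scaling or a pseudocount of 16 (1.69%, against 3.34% to 3.55% of all genes), since Mettl4 lies at the line. It was 5 with no level filter (6.94%, against 12.8%), 0 with a filter at the 75th percentile (0.753% of all genes) and 0 when probe sets were averaged (4.81%). The number at least 2-fold lower, reported as 1, was 4 with no level filter (5.56%, against 11% of all genes) and 0 with the stricter filter (0.55%). It was 2 when probe sets were averaged (4.26%, against 3.72%) and 2 without probe sets that can bind several transcripts (4%, against 3.07%). With 1.5-fold sizes the counts were 4 higher and 7 lower, and with 3-fold sizes 1 and 0. Leaving out the antisense RNA and the pseudogene, chosen after seeing the data, changed neither count.

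Of the 59 symbols past the filter 49 kept their sign under every alternative that gave a value. This count says little about agreement between probe sets. The other scalings, the pseudocount and the level filters still read 1 brightest probe set, and the level filters leave its value unchanged. Trmt10a and Mettl22, whose probe sets past the filter disagreed, had no value with probe sets averaged. Wtap, Alkbh4, Alkbh5, Mettl1, Mettl23 and Trmt2a kept their sign although another probe set past the filter pointed the other way. When probe sets were averaged the sign turned for Alkbh3 (0.38), Alkbh8, Nsun4, Nsun5, Mettl7a1, Mettl9 and Trmt112. Without probe sets that can bind several transcripts it turned for Fbl (0.0058), Mettl15, Mettl17, Mettl9 and Trmt112 (-1.19), and with array medians subtracted for Trmt112. No paired analysis was possible because each group is 1 pool on 1 array. Signal over background limits the dim genes, and the number of mice behind each pool is unknown.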

Other observations

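Next to Trdmt1 in RefSeq lies Cubn, the gene of the cobalamin and albumin uptake receptor cubilin, which was looked up after the values of Trdmt1 were seen. Its 2 probe sets had intensities of 5.08 and 9.52 in the control pool and 91 and 168 in the methionine-deficient pool, log2 differences of 3.92 and 4.01 at levels below the filter. On the other side of Trdmt1, the 3 probe sets of Vim had log2 differences between -0.01 and 0.15. Irx3, the next gene after Fto, had 291 and 19.5, also below the filter by its mean level. Neighbours of Spout1, Mettl3, Ftsj3 and Mettl2 were looked up too. Tox4, which overlaps Mettl3, had log2 differences of 0.27 and 0.34, opposite in sign to Mettl3, and Sall2 beside it had -0.53. Beside Mettl2, Efcab3 had -1.38 and the probe sets of Tlk2 ranged from -0.64 to 3.02. Below the filter 56.2% of all probe sets differed by at least 2-fold, so no shared direction of neighbours is read from these values.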
